A study of Mus musculus with 9 samples.

Results

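The mouse genes for smooth muscle type actin, and for the proteins that bind actin filaments in smooth muscle and in stress fibres, were followed in C2C12 myoblasts. The 10 genes were taken by symbol: the rows of the expression table whose Ensembl identifier maps to Tagln, Tagln2, Acta2, Actg2, Cnn1, Cnn2, Cald1, Myl9, Tpm1 or Tpm2. They are 10 of the 54307 genes in the table, and all 10 were among the 13674 genes that were tested. C2C12 is an established mouse line of skeletal muscle precursor cells. The HL group received 25 mmol/L glucose together with 200 nmol/L liraglutide, an analogue of the hormone GLP-1. The H group received 25 mmol/L glucose alone, and NC was the control group, for which the labels give no glucose concentration. Each group had 3 mRNA libraries, collected after 48 h of treatment. All 9 libraries came from 1 cell line, and no library of a mannitol control for osmolarity was analysed here. The labels number the libraries within a group but do not say that they came from separate cultures, so the p-values measure the spread between these libraries, which may be technical.

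In smooth muscle, contraction runs on the actin isoforms Acta2 and Actg2, on the regulatory myosin light chain Myl9, and on proteins that lie along the filament and set its stiffness and its access to myosin: tropomyosins, caldesmon, calponins and transgelins. Many of these genes are controlled by serum response factor (SRF), which binds a short element called the CArG box (a pair of C, a run of A or T, and a pair of G) and works with cofactors of the myocardin family. One of those cofactors, MRTF-A, is held in the cytoplasm by free actin monomers and enters the nucleus when actin polymerises. Cultured myoblasts and fibroblasts also make many of these proteins, as parts of stress fibres, so their mRNAs do not by themselves mark a smooth muscle cell.

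Promoter sequence is shown for Acta2, Myl9 and Cnn2 because they carry CArG boxes close to the start site and followed 3 different patterns in the libraries. Windows of 250 bases upstream of the start were available for 8 of the 10 genes, among them 2 windows for Cald1. Tagln and Actg2 had none. A CArG box of 10 bases without a mismatch lay in the windows of 2 genes, Cnn2 and Myl9, on either strand. Allowing 1 mismatch, 5 genes had one (Cnn2, Acta2, Tpm1, Cald1 and Myl9). Over all 32851 windows, 1.47% held a box without a mismatch and 18.6% held one with at most 1. The stretches below are RefSeq sequence of build GRCm38.p6, written 5′ to 3′ along the gene's strand, with CArG matches in capitals.
Acta2, chr19:34255378-34255477, minus strand: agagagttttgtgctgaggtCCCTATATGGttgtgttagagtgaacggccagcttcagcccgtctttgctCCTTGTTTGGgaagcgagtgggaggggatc
Myl9, chr2:156775283-156775394, plus strand: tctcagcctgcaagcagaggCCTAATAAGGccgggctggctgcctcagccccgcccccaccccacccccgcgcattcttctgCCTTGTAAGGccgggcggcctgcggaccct
Cnn2, chr10:79988524-79988573, plus strand: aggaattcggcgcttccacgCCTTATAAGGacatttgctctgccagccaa
The Acta2 boxes began 84 and 34 bases before the start, each with 1 mismatch. Those of Myl9 began 161 bases before it, without a mismatch, and 99 bases before it, with 1 mismatch. The box of Cnn2 began 56 bases before the start. The MCAT motif CATTCC, which TEAD factors bind, was searched on both strands as well. It was found in 4 genes (Tagln2, Acta2, Tpm1 and Cald1), against 12.6% of all windows, and overlapped no CArG match. No match says only that these letters are not in this window.

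Levels are FPKM, fragments scaled to gene length and to the mapped reads of the library, so they can be set side by side between genes. The depth estimated from the smallest steps between low values was 16.9 to 21.3 M reads in HL libraries, 18.6 to 22.4 M in H libraries and 20.6 to 21.3 M in NC libraries. The median SD of a tested gene within a group, on the log2(FPKM + 0.1) scale, was 0.0865 in HL, 0.171 in H and 0.0723 in NC. The 6 myoblast markers summed to 500 to 512 FPKM in HL libraries, 208 to 316 in H libraries and 328 to 344 in NC libraries. Most of that sum was Des, with means of 368.5 FPKM in HL, 190.7 in H and 252.8 in NC. Not all 6 took this order. Myf5 averaged 20.9 FPKM in HL, 11.3 in H and 7.32 in NC, and Myod1 13.1 in HL, 8.16 in H and 18.2 in NC. Of the 5 smooth muscle markers, the defining genes Myh11 and Myocd were near 0 in all groups, with means of 0.02 and 0.155 FPKM in HL, 0.04 and 0.07 in H, and 0.02 and 0.02 in NC. The sum of the 5 was 63.6 to 67.8 FPKM in HL, 37.7 to 51.6 in H and 52.2 to 56.4 in NC. Most of it was Smtn, with means of 55.4 FPKM in HL, 37.9 in H and 48.3 in NC. The remaining markers did not take this order. Synpo2 averaged 8.38 FPKM in HL, 5.32 in H and 4.34 in NC, and Lmod1 1.78 in HL, 2.21 in H and 1.99 in NC. The 5 macrophage markers summed to 19.3 to 20.4 FPKM in HL, 106 to 169 in H and 5.39 to 6.64 in NC. In H most of the sum was Csf1r, with means of 0.262 FPKM in HL, 124.7 in H and 0.451 in NC. In HL and NC most of it was Cd68, with means of 19.0 FPKM in HL, 17.6 in H and 4.78 in NC. Ptprc and Adgre1 were at or near 0. The 5 fibroblast markers summed to 562 to 578 FPKM in HL, 294 to 508 in H and 645 to 658 in NC. Nearly all of that sum was Col3a1, with means of 543 FPKM in HL, 348 in H and 629 in NC, while Dcn averaged 12.6 FPKM in HL, 12.9 in H and 7.27 in NC, and Pdgfra 11.1 in HL, 16.1 in H and 16.0 in NC. The part of these marker levels in the results was not tested. In bulk RNA, fewer cells of a type and less RNA per cell cannot be told apart.

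By mean over the 9 libraries, Tpm1 was the most abundant of the 10 genes (578 FPKM), followed by Acta2 (403 FPKM), Tagln2 (286 FPKM), Cald1 (232 FPKM), Tpm2 (149 FPKM) and Cnn2 (104 FPKM). Tagln (78.4 FPKM), Myl9 (52.8 FPKM) and Actg2 (48.6 FPKM) lay lower, and Cnn1 was the only one under 10 FPKM, at 4.97. Tpm1 stood above 98.7% of the tested genes and Cnn1 above 27.9%. Summed over the 10 genes, HL libraries held 1743 to 1782 FPKM, H libraries 1314 to 1772 FPKM and NC libraries 2445 to 2500 FPKM. The sum was lower in every HL and H library than in every NC library, and the HL and H ranges overlapped. As a share of all FPKM in the library, the 10 genes made up 0.243% to 0.251% in HL, 0.192% to 0.265% in H and 0.319% to 0.326% in NC. Reads per gene were estimated from FPKM, the estimated depth and the gene's longest transcript, so they are too high where shorter transcripts were expressed. By this estimate Cnn1 rested on about 69 to 411 reads per library, and Tagln on about 888 to 4558. Cnn1 thus carried a larger relative counting error than Tagln.

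**Figure D1:**
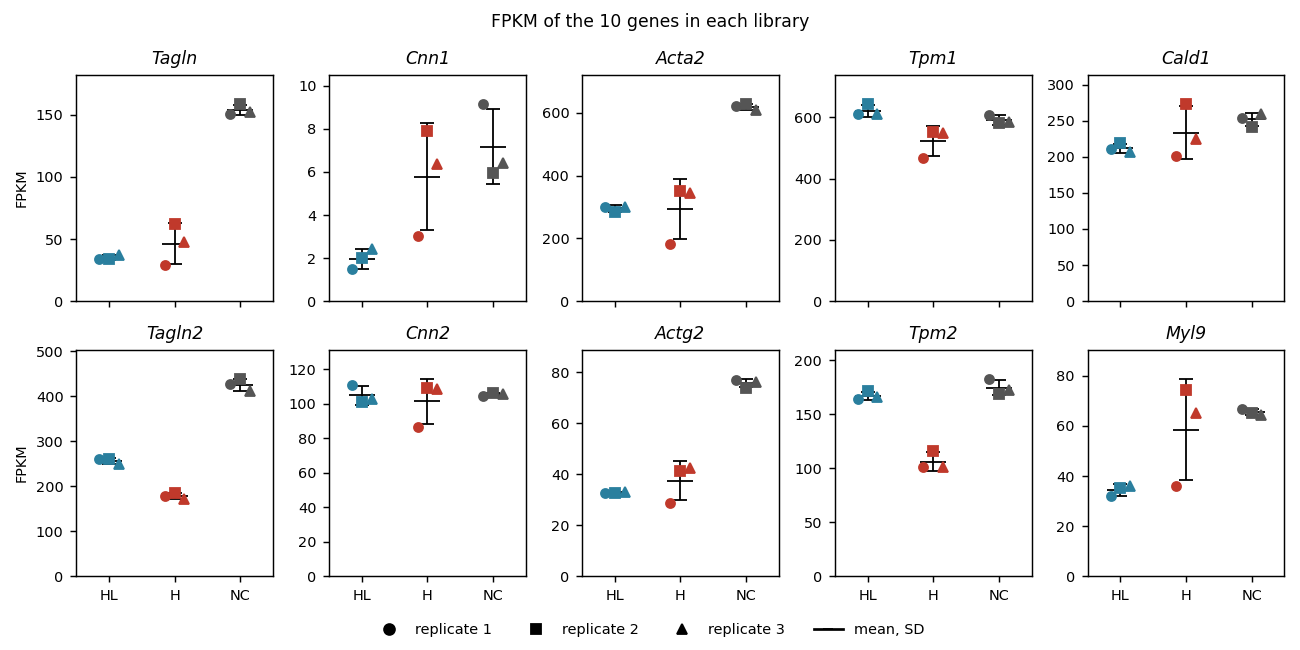
FPKM of each of the 10 genes (vertical axes, each starting at 0) in the HL, H and NC libraries, with circles, squares and triangles for replicates 1, 2 and 3 and bars for the mean and SD of 3 libraries. Tagln, Tagln2, Acta2 and Actg2 are lower in every HL and H library than in every NC library, and the H points spread more widely than the others in most panels.

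The first question was how high glucose alone changed these genes. In H myoblasts, 4 of the 10 genes fell relative to NC: both smooth muscle type actins, Acta2 and Actg2, and both transgelins, Tagln and Tagln2. No gene of the 10 rose. Their H means were 0.301 (Tagln), 0.418 (Tagln2), 0.473 (Acta2) and 0.496 (Actg2) of the NC means (n = 3 each). A call needed a limma p, adjusted by Benjamini-Hochberg over all tested genes, under 0.05 together with a log2 fold change beyond 1 in either direction. By the same rule, 5.75% of all tested genes fell and 10.3% rose in H. The median log2 fold change was -0.56 over the 10 genes and -0.04 over all tested genes. With the adjusted p alone, 6 of the 10 were lower and none higher, against 33.0% and 27.1% of all tested genes, the additional pair being Tpm1 and Tpm2. The same 6 genes had every H library below every NC library, against 35.7% of tested genes with libraries apart in that direction and 29.7% in the other. The calls of Acta2 and Actg2 were lost without H replicate 1, described further on, and when FPKM were rescaled to TPM, since their log2 fold changes then fell short of 1. The TPM scale moved the median of all tested genes by more than 0.1, to 0.15.

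**Figure D2:**
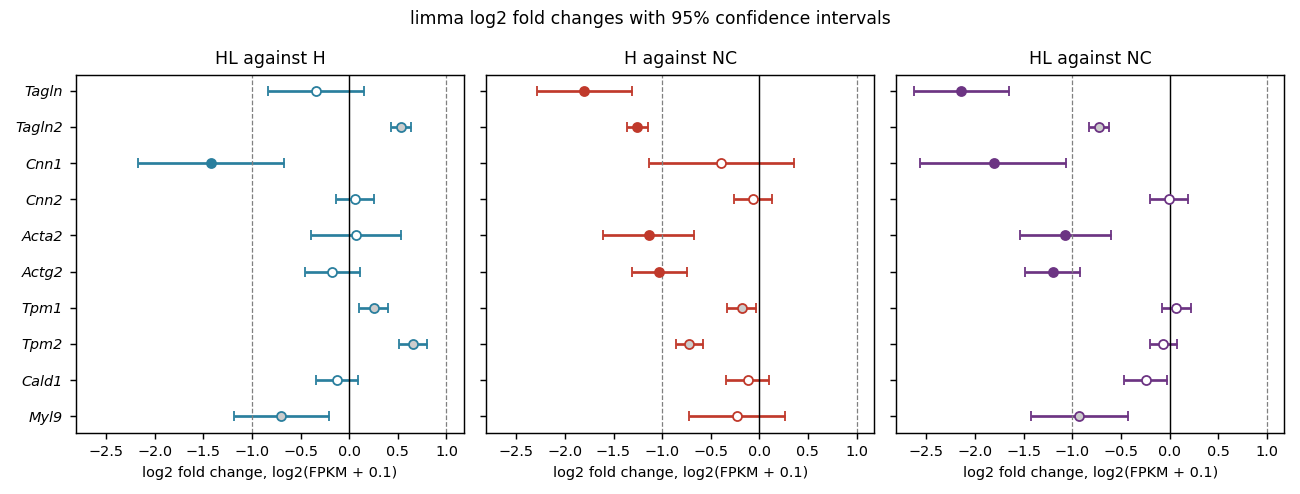
Log2 fold change on the log2(FPKM + 0.1) scale with 95% confidence interval for each of the 10 genes, in panels for HL against H, H against NC and HL against NC (3 libraries per group). Filled points passed both thresholds, grey points the adjusted p only and white points neither, and dashed lines mark 1 and -1. In H against NC the filled points are Tagln, Tagln2, Acta2 and Actg2, and in HL against H only Cnn1 is filled.

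Acta2 (ENSMUSG00000035783.10) encodes the alpha actin of vascular smooth muscle, also found in myofibroblasts. Its level was 301.4, 283 and 301.2 FPKM in HL libraries, 184, 352 and 344 FPKM in H libraries and 621, 627 and 610.1 FPKM in NC libraries. Every HL and every H library lay below every NC library, while HL lay inside the range of H. In H against NC the log2 fold change was -1.14 (SE 0.207, adjusted p = 0.00113). In HL against NC it was -1.07 (SE 0.207, adjusted p = 0.00247), and in a fit of HL and NC alone the SE was 0.0318 (adjusted p = 1.28e-06). The main fit takes 1 spread per gene from all 9 libraries. The wide spread of H therefore enters HL against NC too, also for the genes below. For HL against H the log2 fold change was 0.07, with a 95% interval of -0.40 to 0.54 and an adjusted p of 0.802, a difference within the spread of H. Without H replicate 1, HL against H was -0.24 (adjusted p = 0.00207) and H against NC was -0.83 (adjusted p = 1.18e-06).

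Actg2 (ENSMUSG00000059430.15) encodes the gamma actin of enteric smooth muscle. It was measured at 32.5, 32.7 and 33.0 FPKM in HL, at 28.9, 41.4 and 42.3 FPKM in H and at 77.0, 73.8 and 76.0 FPKM in NC. As with Acta2, the NC libraries lay apart above the others, and HL lay inside the range of H. The log2 fold change was -1.03 in H against NC (SE 0.125, adjusted p = 9.24e-05) and -1.20 in HL against NC (adjusted p = 8.78e-05). Between HL and H it was -0.17 (95% interval -0.46 to 0.11, adjusted p = 0.276), and without H replicate 1 it was -0.35 (adjusted p = 0.000373), below the fold threshold. H against NC was then -0.85 (adjusted p = 1.43e-06). The muscle actins Acta2, Actg2, Acta1 and Actc1 have nearly identical coding sequences, and the sources used here do not say how reads shared between them were counted, so their single values are uncertain to that extent.

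Tagln (ENSMUSG00000032085.6), known as SM22 alpha, encodes a calponin-related protein that binds actin filaments and is an early marker of smooth muscle differentiation. It showed 33.6, 34.0 and 37.1 FPKM in HL libraries, 29.0, 62.1 and 47.9 FPKM in H libraries and 151, 159 and 153 FPKM in NC libraries. It had the largest change of the 10 genes in both comparisons with NC. The log2 fold change was -1.80 in H against NC (SE 0.218, adjusted p = 9.21e-05) and -2.14 in HL against NC (adjusted p = 7.97e-05). Between HL and H the value was -0.34 (95% interval -0.83 to 0.15, adjusted p = 0.225), with overlapping libraries. Leaving out H replicate 1 gave -1.50 in H against NC (adjusted p = 6.11e-06) and -0.64 in HL against H (adjusted p = 0.00128), the second still short of a call by its size.

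Tagln2 (ENSMUSG00000026547.16) encodes the more widely expressed transgelin, found in many cell types outside smooth muscle. Its levels were 261, 260.1 and 249 FPKM in HL, 177, 184 and 171 FPKM in H and 426, 437 and 412 FPKM in NC. The 3 groups did not overlap: H was lowest, HL lay between, and NC was highest. Tagln2 fell in H relative to NC by 1.26 on the log2 scale (SE 0.0463, adjusted p = 1.39e-07). In HL against H its log2 fold change was 0.53 (95% interval 0.43 to 0.63, adjusted p = 3.06e-05), past the adjusted p but not the fold threshold. In HL against NC it was -0.73 (adjusted p = 8.8e-06). The HL mean was 1.44 times the H mean and 0.604 of the NC mean. Tagln2 was also the only one of the 10 genes whose H replicate 1 was not the lowest H library.

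The calponins bind actin filaments and restrain myosin. Cnn1 (ENSMUSG00000001349.6) encodes the basic calponin, typical of differentiated smooth muscle. It was measured at 1.495, 1.99 and 2.42 FPKM in HL, at 3.03, 7.90 and 6.37 FPKM in H and at 9.15, 5.96 and 6.43 FPKM in NC. All 3 HL libraries lay below every other library, and H overlapped NC. Cnn1 fell in HL relative to H, by 1.42 on the log2 scale (SE 0.333, adjusted p = 0.00687), and relative to NC, by 1.81 (adjusted p = 0.00186). In H against NC the log2 fold change was -0.39 (95% interval -1.14 to 0.36, adjusted p = 0.333), and it was 0.01 without H replicate 1. The HL mean was 0.342 of the H mean and 0.274 of the NC mean.

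Cnn2 (ENSMUSG00000004665.11) encodes the calponin found in many non-muscle cells. Its level was 111, 101 and 103 FPKM in HL, 86.6, 109 and 109 FPKM in H and 104, 106 and 106 FPKM in NC. The groups overlapped in all 3 comparisons. The log2 fold change was 0.06 in HL against H (95% interval -0.14 to 0.25), -0.07 in H against NC (-0.26 to 0.13) and -0.01 in HL against NC (-0.21 to 0.19). Adjusted p-values were 0.625, 0.535 and 0.939. These intervals leave room for changes of up to about 0.26 on the log2 scale in either direction.

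Tropomyosins run along the actin filament and govern which motors and binding proteins reach it. Tpm1 (ENSMUSG00000032366.16) gave 609, 643 and 609 FPKM in HL, 467, 551 and 548 FPKM in H and 608, 580.1 and 584 FPKM in NC. Every H library lay below every HL and every NC library. The log2 fold change was 0.25 in HL against H (95% interval 0.10 to 0.40, adjusted p = 0.0116), -0.18 in H against NC (adjusted p = 0.037) and 0.07 in HL against NC (adjusted p = 0.411). None of these reached the fold threshold. The difference between H and NC was 0.01 on the TPM scale, and its adjusted p was 0.0534 without H replicate 1.

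Tpm2 (ENSMUSG00000028464.17) encodes beta tropomyosin, which is made in skeletal as well as smooth muscle. It was measured at 164, 172 and 166 FPKM in HL, at 101, 116 and 102 FPKM in H and at 183, 169 and 173 FPKM in NC. The H libraries lay apart below both other groups, and HL overlapped NC. The log2 fold change was 0.66 in HL against H (95% interval 0.52 to 0.80, adjusted p = 4.85e-05) and -0.72 in H against NC (SE 0.0623, adjusted p = 1.12e-05). In HL against NC it was -0.06 (95% interval -0.20 to 0.08, adjusted p = 0.43). The H mean was 0.608 of the NC mean and the HL mean 1.57 times the H mean. Each tropomyosin gene makes many isoforms by alternative exons, and the values are sums over a gene, so they do not tell muscle from non-muscle isoforms.

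Cald1 (ENSMUSG00000029761.17) encodes caldesmon, which inhibits the myosin ATPase on actin filaments. It stood at 211, 219 and 206 FPKM in HL, at 201, 273 and 225 FPKM in H and at 254, 241 and 259.8 FPKM in NC. The log2 fold change was -0.13 in HL against H (adjusted p = 0.308), -0.12 in H against NC (adjusted p = 0.298) and -0.25 in HL against NC (95% interval -0.46 to -0.03, adjusted p = 0.0582). The HL libraries lay below all NC libraries, but the difference missed the adjusted threshold. That p was 0.0153 without H replicate 1, 0.00452 without H replicate 2 and 0.00106 in a fit of HL and NC alone, and ranged up to 0.241 on the TPM scale. In HL against H the log2 fold change of Cald1 was -0.23 (adjusted p = 0.0429) without H replicate 1 and -0.006 (adjusted p = 0.942) without H replicate 2.

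Myl9 (ENSMUSG00000067818.7) encodes the regulatory light chain of smooth muscle and non-muscle myosin, whose phosphorylation switches contraction on. Its level was 31.9, 35.3 and 36.1 FPKM in HL, 36.0, 74.4 and 65.3 FPKM in H and 66.7, 65.2 and 64.5 FPKM in NC. HL lay below every NC library and met H only at H replicate 1. The log2 fold change was -0.70 in HL against H (95% interval -1.19 to -0.20, adjusted p = 0.026), -0.93 in HL against NC (adjusted p = 0.00711) and -0.23 in H against NC (95% interval -0.72 to 0.27, adjusted p = 0.395). Without H replicate 1, Myl9 passed both thresholds in HL against H, at -1.02 (adjusted p = 2.63e-05), and H against NC was 0.09. The adjusted p of HL against H was instead over 0.05 without H replicate 2 (0.0707), H replicate 3 (0.0891), HL replicate 1 (0.0762), HL replicate 2 (0.0575) or HL replicate 3 (0.0522), and in a fit of these groups alone (0.057).

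The second question was what liraglutide changed on top of high glucose. In HL against H, 1 of the 10 genes fell, Cnn1, and none rose, where 5.83% and 3.55% of all tested genes did so. Without H replicate 1 the genes that fell were 2, Cnn1 and Myl9. With the adjusted p alone, 3 genes were higher in HL (Tagln2, Tpm1 and Tpm2) and 2 lower (Cnn1 and Myl9), against 26.7% and 21.7% of all tested genes. Leaving out H replicate 1 made 6 genes lower, adding Tagln, Acta2, Actg2 and Cald1, while leaving out H replicate 2, H replicate 3 or any 1 HL library left 1, Cnn1. Libraries did not overlap in 4 genes, 3 higher in HL and 1 lower, against 30.4% and 24.9%. The median log2 fold change was -0.04 over the 10 genes and 0.04 over all tested genes. In HL against NC, 4 genes fell (Tagln, Cnn1, Acta2 and Actg2) and none rose, against 2.41% and 6.30% of tested genes. With the adjusted p alone 6 were lower, against 27.2%, Tagln2 and Myl9 being added, and none was higher, against 21.6%. HL libraries lay below all NC libraries in 7 genes, against 36.3% of tested genes, and above them in 1, Tpm1, against 29.5%. The median was -0.83 over the 10 genes and -0.04 over all tested genes. The 3 comparisons share libraries, so their values are set side by side here and were not compared with each other by a test.

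Set side by side, the genes took different positions in the 3 groups. Acta2, Actg2 and Tagln had HL and H both below NC, and HL overlapped H only because H replicate 1 was low, the other H libraries lying above HL. Tagln2 had HL between H and NC. Tpm2 had H below and HL overlapping NC. Cnn1 had HL below with H overlapping NC, Myl9 the same except that H replicate 1 met HL, and the 3 groups of Cnn2 overlapped throughout.

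Ratios between related genes in the same library do not depend on the library's scaling. Tagln stood to Tagln2 as 0.136 ± 0.011 in HL, 0.26 ± 0.0882 in H and 0.362 ± 0.00802 in NC (SD, n = 3 each). The 3 ranges did not overlap, so the smooth muscle transgelin was lowest relative to its widely expressed relative in HL. The ratio of Cnn1 to Cnn2 was 0.0135 to 0.0236 in HL, 0.035 to 0.0724 in H and 0.0561 to 0.0877 in NC, with HL apart from both. The ratio of Tpm1 to Tpm2 was 3.71 ± 0.0351 in HL, 4.92 ± 0.422 in H and 3.38 ± 0.0551 in NC (SD, n = 3 each). Here H was highest, HL lay between, and no ranges overlapped. Acta2 to Actg2 was 8.66 to 9.29 in HL, 6.36 to 8.51 in H and 8.03 to 8.50 in NC, so HL lay above every other library and H overlapped NC. With 3 libraries against 3, an exact permutation test cannot give a two-sided p under 0.10, so none is given for the ratios.

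**Figure D3:**
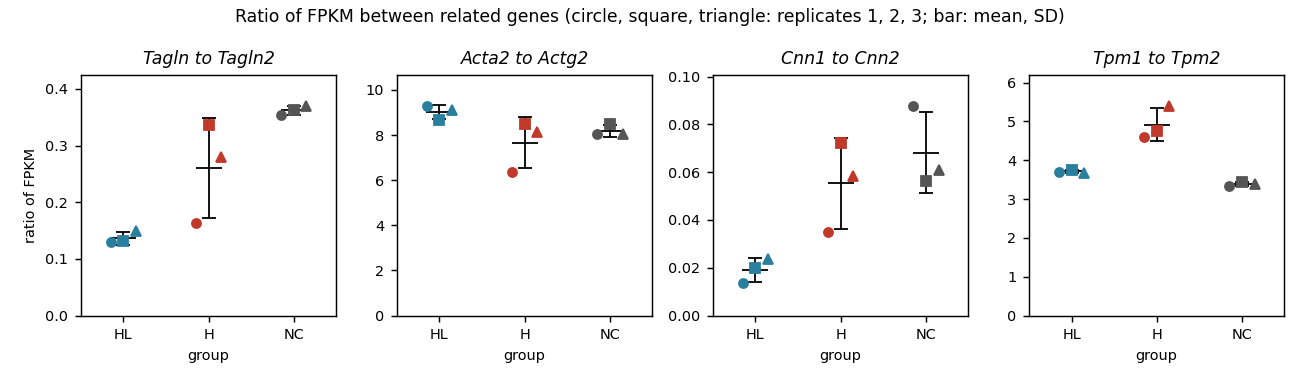
Ratio of FPKM (vertical axes, each starting at 0) between related genes in each HL, H and NC library, with circles, squares and triangles for replicates 1, 2 and 3 and bars for the mean and SD of 3 libraries. Tagln to Tagln2 is lowest in HL and highest in NC, Tpm1 to Tpm2 is highest in H, and H replicate 1 has the lowest Acta2 to Actg2 ratio, 6.36.

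Within the H group most of the 10 genes were low in the same library. H replicate 1 was the lowest H library in 9 of them and H replicate 2 the highest in 9. Over all tested genes H replicate 1 was the lowest in 33.9% and H replicate 2 the highest in 32.7%. For Tpm2 the lowest place was nearly tied, at 101.2 FPKM in H replicate 1 and 101.5 in H replicate 3. On the log2(FPKM + 0.1) scale, H replicate 1 minus the mean of the other H libraries had a median of -0.43 over the 10 genes and 0.02 over all tested genes. The largest gaps were those of Cnn1 (-1.20), Myl9 (-0.95), Acta2 (-0.92) and Tagln (-0.91), all in the lowest 2.29% of tested genes, and the smallest was that of Tagln2 (-0.004). The estimated depth of H replicate 1, 22.2 M reads, lay within the range of the other libraries. Among other genes, 9 of 10 tested relatives, 7 of 10 other smooth muscle contractile genes and 2 of 6 myoblast markers were lowest in the same library. Without it, 2 genes instead of 4 fell in H against NC (Tagln and Tagln2), while Tagln, Cnn1, Acta2 and Actg2 fell in HL against NC as they did with it.

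**Figure D4:**
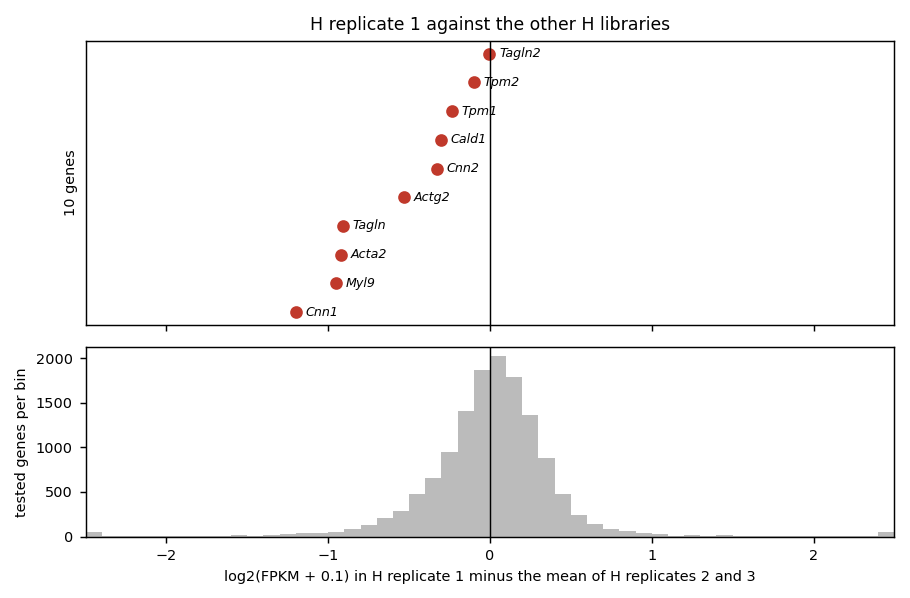
Log2(FPKM + 0.1) in H replicate 1 minus the mean of H replicates 2 and 3 (horizontal axis), for the 10 genes as points above and for the 13674 tested genes as a histogram below, in which the outermost bins hold all genes beyond the axis. The points run between -1.20 for Cnn1 and -0.004 for Tagln2, while the histogram centres near 0.

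Over the 9 libraries, Pearson's r of log2(FPKM + 0.1) was highest for Tagln with Actg2 (0.993), Cnn1 with Myl9 (0.967) and Acta2 with Actg2 (0.966), and it was 0.85 for Tagln2 with Tpm2 and -0.197 for Cnn1 with Tpm1. These are descriptions of libraries that share 3 treatments. Among the genes with a mean of at least 5 FPKM, 9847 besides the gene itself for Tagln, Acta2 and Tpm1 and 9848 for Cnn1, those nearest to Tagln were Col6a3 (r = 0.999), a chain of type VI collagen, Snai1 (0.994), the transcription factor Snail, and Olfml3 (0.994), an olfactomedin-like secreted protein. Nearest to Acta2 were Uap1 (0.999), an enzyme that makes UDP-N-acetylglucosamine, Sqor (0.997), the mitochondrial sulfide oxidase, and 2310022B05Rik (0.997). Nearest to Cnn1 were Nr4a2 (0.981), an orphan nuclear receptor, Myl9 (0.967), and Tnpo2 (0.961), a nuclear import receptor. Nearest to Tpm1 were Tango2 (0.982), Map3k20 (0.974), a stress-activated kinase, and Ankrd1 (0.972), a muscle ankyrin repeat protein.

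Relatives of the 10 genes that are not themselves among the 10 were read in the same fit. Of 11 listed, 10 were tested, and Tagln3 stayed below 1 FPKM in every library. None fell or rose in H against NC, where 5.75% and 10.3% of all tested genes did. With the adjusted p alone 6 were lower and 0 higher, against 33.0% and 27.1%, with a median log2 fold change of -0.36. In HL against H, 1 rose and 0 fell, against 3.55% and 5.83% of all tested genes. The 1 that rose was Acta1, the actin of skeletal muscle sarcomeres. Acta1 averaged 10.8 ± 0.626 FPKM in HL, 3.61 ± 0.762 FPKM in H and 4.04 ± 0.696 FPKM in NC (SD, n = 3 each). Its log2 fold change in HL against H was 1.57 (adjusted p = 7.88e-05). The cytoplasmic actins were by far the more abundant. Actb averaged 1509 ± 36.6 FPKM in HL, 1190.0 ± 27.8 FPKM in H and 1503 ± 26.1 FPKM in NC, with -0.34 in H against NC (adjusted p = 6.9e-05) and 0.34 in HL against H (adjusted p = 0.000131) on the log2 scale. Cnn3, the acidic calponin, averaged 410 ± 5.42 FPKM in HL, 271 ± 32.7 FPKM in H and 354 ± 4.34 FPKM in NC, and its log2 fold change in HL against H was 0.60 (adjusted p = 0.000265). With the adjusted p alone, 8 of the 10 tested relatives were higher in HL than in H and 0 lower, where 26.7% and 21.7% of all tested genes were. In HL against NC 4 were higher (Acta1, Cnn3, Myl12a and Myl12b) and 3 lower, against 21.6% and 27.2%. The 3 lower were Myl6 (-0.55 on the log2 scale), Tpm4 (-0.39) and Tpm3 (-0.23).

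**Figure D5:**
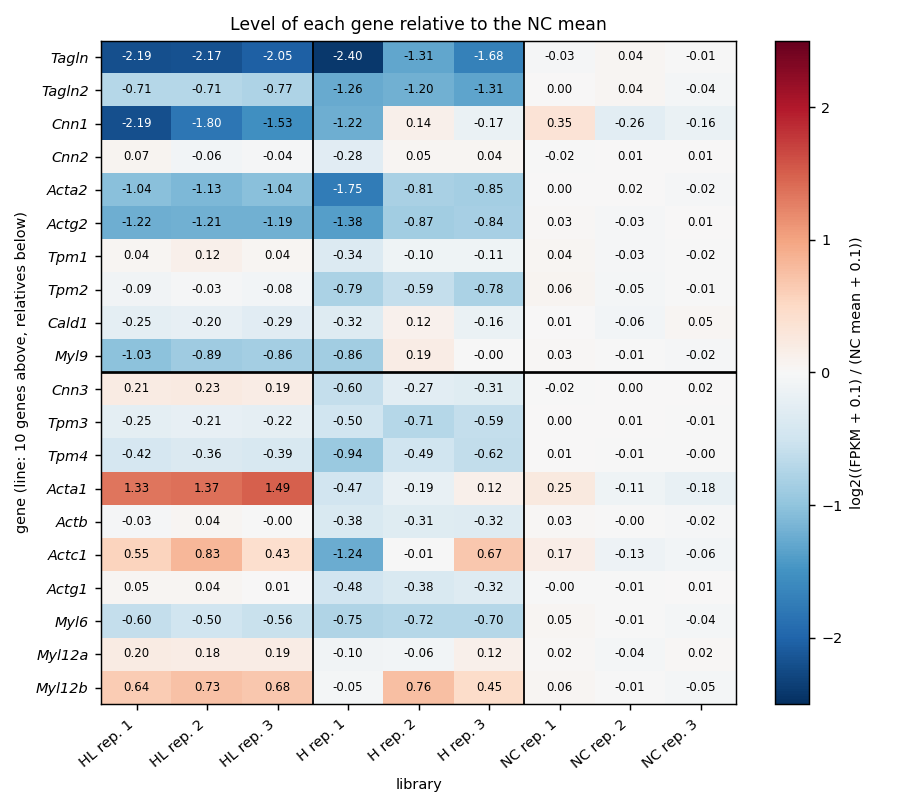
Log2 of (FPKM + 0.1) over (NC mean + 0.1) for the 10 genes (above the line) and their tested relatives (below it) in each HL, H and NC library, blue for below and red for above the NC mean. Tagln reads between -2.19 and -2.05 in HL libraries and between -2.40 and -1.31 in H libraries, while Acta1 reads between 1.33 and 1.49 in HL libraries.

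Of 15 other smooth muscle contractile genes, 10 were tested. In H against NC 1 rose and 0 fell, against 10.3% and 5.75% of all tested genes, with a median log2 fold change of 0.08. In HL against H 0 rose and 1 fell, against 3.55% and 5.83%, with a median of 0.21. That gene was Tns1 both times. Tns1, which encodes tensin, a link between actin filaments and integrins, averaged 59.4 ± 0.814 FPKM in HL, 144 ± 20.8 FPKM in H and 50.9 ± 4.2 FPKM in NC (SD, n = 3 each). Its log2 fold change was 1.49 in H against NC (adjusted p = 2.66e-06) and -1.27 in HL against H (adjusted p = 1.99e-05).

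Of 10 listed genes for SRF and its cofactors 9 were tested. Of these only Fhl2, a LIM protein that binds SRF, rose in H, where 10.3% of all tested genes did. Fhl2 averaged 68.4 ± 1.77 FPKM in HL, 102 ± 7.5 FPKM in H and 46.7 ± 0.869 FPKM in NC. On the log2 scale the difference was 1.12 in H against NC (adjusted p = 6.66e-07). Srf itself averaged 34.1 ± 2.56 FPKM in HL, 32.9 ± 2.54 FPKM in H and 22.2 ± 1.26 FPKM in NC, a log2 fold change of 0.56 in H against NC (adjusted p = 0.000257) that did not reach the fold threshold. Mrtfa averaged 36.3 ± 0.826 FPKM in HL, 27.5 ± 3.19 FPKM in H and 26.2 ± 1.06 FPKM in NC. None of these 9 passed both thresholds as lower in any comparison. With the adjusted p alone 4 were higher and 1 lower in H against NC, against 27.1% and 33.0% of all tested genes. In HL against H 3 were higher and 2 lower, against 26.7% and 21.7%. Mrtfa was among the higher, at 0.41 on the log2 scale (adjusted p = 0.00368). Fhl2 was among the lower, at -0.57 (adjusted p = 7.64e-05), and in HL against NC it was 0.55 (adjusted p = 0.000106).

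Stress fibre and focal adhesion genes were all 17 tested. In H against NC 1 fell, Myh10, the heavy chain of non-muscle myosin IIB, where 5.75% of all tested genes fell. With the adjusted p alone 5 were higher and 4 lower, against 27.1% and 33.0%. Myh10 averaged 32.4 ± 1.29 FPKM in HL, 17.2 ± 1.05 FPKM in H and 38.2 ± 0.615 FPKM in NC, a log2 fold change of -1.15 in H against NC (adjusted p = 7.07e-07) and 0.91 in HL against H (adjusted p = 8.12e-06). None of the 17 passed both thresholds in HL against H, where 3.55% of all tested genes rose and 5.83% fell. With the adjusted p alone 10 were higher and 2 lower, against 26.7% and 21.7%.

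Of 14 TGF-beta pathway genes none was called in H against NC or in HL against H. In HL against NC 1 fell, Tgfbi, where 2.41% of all tested genes did. With the adjusted p alone 7 were higher and 3 lower in H against NC, against 27.1% and 33.0%. In HL against H 4 were higher and 5 lower, against 26.7% and 21.7%. Ltbp1, which stores latent TGF-beta in the matrix, averaged 60.8 ± 1.72 FPKM in HL, 47.7 ± 11.9 FPKM in H and 62.0 ± 0.923 FPKM in NC. Its log2 fold change was -0.41 in H against NC (adjusted p = 0.0452), with 34.0 FPKM in H replicate 1 and 54.2 and 54.9 FPKM in the other H libraries. Of 12 YAP and TEAD genes, 1 rose in H against NC, Tead4, where 10.3% of all tested genes did. In HL against H 2 fell, Tead4 and Lats2, against 5.83%. Tead4, a transcription factor that binds MCAT motifs, averaged 4.83 ± 0.238 FPKM in HL, 14.8 ± 4.79 FPKM in H and 3.98 ± 0.281 FPKM in NC, with log2 fold changes of 1.82 in H against NC (adjusted p = 5.19e-05) and -1.55 in HL against H (adjusted p = 0.000279). Lats2, a kinase that restrains YAP, averaged 7.93 ± 0.132 FPKM in HL, 17.8 ± 0.812 FPKM in H and 12.8 ± 0.395 FPKM in NC (SD, n = 3 each).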

How the data were processed

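Per the labels and the study's methods, 9 mRNA libraries of C2C12 cells were sequenced on an Illumina HiSeq, aligned with HISAT2 (version 2.1.0) and quantified with StringTie (version 1.3.3b). The authors deposited FPKM per gene and library, which were used as given. The sources differ in the genome and quantifier they name, so genes of the table are given without coordinates. No count model was used, since FPKM are scaled values.

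Values were transformed to log2(FPKM + 0.1), so fold changes of low genes are understated. Genes with at least 1 FPKM in 3 or more libraries (13674) were fitted with limma 3.58.1 (trend and robust options, statmod 1.5.0, R 4.3.3) in 1 model of the 9 libraries (6 residual degrees of freedom), with Benjamini-Hochberg adjustment in each comparison. The fit was also tested on simulated data. Depth was estimated from FPKM steps of genes with 1 transcript of at least 2000 bases, where 99.4% to 99.9% of low values lay within 0.1 of whole reads.

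Named genes were the 10 members, their relatives, in each list up to 4 called genes with the largest change in H against NC or HL against H (the 2 most abundant where none was called), and for Tagln, Acta2, Cnn1 and Tpm1 the 3 genes with the highest Pearson's r. Srf, Mrtfa, Tgfbi and the cell type markers given by name fall outside this rule and were named after their values were seen. Some items that the rule takes are not reported here. The members and lists were chosen with earlier results of these data known. Alternatives were other pseudocounts, filters and scales, a non-robust limma fit, a fit of the compared groups only, a replicate block, no fold threshold, and leaving out each library. Promoter windows were those of RefSeq (GRCm38.p6). Plots used matplotlib 3.10.9 and tables pandas 2.3.3, both under Python 3.11.15.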

Additional observations from a re-analysis of the deposited data

How the results depend on the processing

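Of the alternative values of single genes, 538 kept their direction and their side of the threshold. Another 9 passed the threshold only under the alternative, 5 lost it and 15 changed sign. The setting without a fold threshold repeats the log2 fold change of the main fit, so its direction could not change. Of the counts of genes, 108 stayed within 1.5 times and 6 did not. Many of the 108 set 0 against 0, since none of the 10 genes rose in the main fit, so these tallies are no measure of robustness. The number of the 10 genes that fell in H against NC was 4, 2 on the TPM scale, and 2 to 4 when each library was left out. In HL against H the number that fell was 1, but 0 with a filter on a mean of 5 FPKM, where Cnn1 was no longer tested, 2 without a fold threshold, and 1 to 2 when each library was left out, and the number that rose was 0, but 3 without a fold threshold. On the TPM scale the log2 fold change changed sign for Cald1 (0.0712), Cnn2 (0.128) and Tpm1 (0.0104) in H against NC, for Acta2 (-0.0268) and Cnn2 (-0.0415) in HL against H, and for Cnn2 (0.0864) and Tpm2 (0.0329) in HL against NC, and Cnn2 was 0.0079 in HL against NC with median centring. Leaving out each library in turn gave log2 fold changes of -0.668 to 0.00794 for Cnn1, -0.121 to 0.0448 for Cnn2 and -0.432 to 0.0904 for Myl9 in H against NC, of -0.237 to 0.232 for Acta2 and -0.0548 to 0.111 for Cnn2 in HL against H, and of -0.0513 to 0.0166 for Cnn2 in HL against NC. On the TPM scale Acta2 was -0.95 (adjusted p = 0.00436) and Actg2 -0.84 (adjusted p = 0.000557) in H against NC, and Acta2 was -0.97 (adjusted p = 0.00553) in HL against NC, all short of the fold threshold. The adjusted p of Myl9 in HL against H was 0.0618, and that of Tpm1 in H against NC 0.0645, without a filter on low values. Beyond these constructions the cause was not tested.

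With the replicate number as a block, the genes that fell were 4 in H against NC, 1 in HL against H and 4 in HL against NC, as without it. Same-numbered libraries share only a number: their deviations from the group means correlated at 0.0456 to 0.0911 in H against NC, -0.0366 to 0.0264 in HL against H and -0.021 to 0.0223 in HL against NC. In H against NC each library correlated best with its own number, but the values were small and the other comparisons did not show this. Deviations within a group sum to 0, so these correlations depend on each other and cannot show a pairing. With 3 libraries a group, the wide spread of H limits what could be detected, above all for Cnn1, Tagln, Acta2 and Myl9.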
